A study of Mus musculus with 9 samples.

Results

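The MHC class II genes and Ciita were followed in mouse bone-marrow-derived macrophages that had been activated with interleukin 4 (IL-4) and treated with lipocalin 2 (LCN2), a secreted protein that binds iron-carrying siderophores. The members were chosen by gene symbol, and 10 symbols were named: H2-Aa, H2-Ab1, H2-Eb1, H2-DMa, H2-DMb1, H2-DMb2, H2-Oa, H2-Ob, Cd74 and Ciita. A named probe set was at hand for 9 of the 10, out of 19505 genes with one in all; Cd74 was not analysed here. Each of the 9 had a single probe set, so no choice between probe sets was needed. A level is the log2 expression value of a probe set on 1 array, and 7 of the 9 lay above the dim level of 5.66, the median of all probe-set means. H2-Oa and H2-Ob lay below it and were left out of the test across 10042 genes.

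There were 9 arrays in 3 groups of 3, all from wild-type C57BL/6 marrow. The cells grew for 7 days with macrophage colony-stimulating factor (10 ng/ml in the growth protocol, 20 ng/ml in the series text), and every group was then given 20 ng/ml IL-4, with harvest 24 h later. The vehicle group had no added LCN2. Another group received LCN2 on day 7, together with IL-4, and no dose is given for it. The third had 150 ng/ml recombinant mouse LCN2 in the medium from day 0. The titles number the arrays of each group 1, 2 and 3. Whether these came from separate mice or cultures is not in the labels. A p-value here therefore covers no more than the scatter of these arrays, possibly technical scatter. Every group had IL-4, so none shows class II expression in resting macrophages.

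MHC class II molecules display peptides from endocytosed proteins to CD4+ T helper cells. An alpha and a beta chain assemble in the endoplasmic reticulum with the invariant chain, are carried to late endosomes, and exchange the remnant of that chain for antigenic peptide with the help of H2-DM, which H2-DO restrains. Transcription of the family depends on CIITA, a coactivator that binds no DNA itself and docks on factors bound to the X and Y boxes of class II promoters. Macrophages make little class II at rest, and interferon gamma and IL-4 are known inducers.

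The X and Y boxes are shown first, because this element is known to control the family whose values follow. RefSeq promoter entries (GRCm38.p6) were found for 7 of the 9 measured members, in 8 windows, and the 250 bases before the annotated start were searched. There was no entry for H2-Ab1 or Ciita. The letters AAC and, 3 bases on, TGATG, called the X core below, and ATTGG, the inverted CCAAT of the Y box, were written down after these windows had been read, so their presence is a description. In the stretches below, written 5′ to 3′ on the gene's own strand, capitals mark the X core (its 3 free bases included) followed by ATTGG, or, in H2-Aa, TGACGTCA followed by ATTGG. The capital blocks shown do not overlap.
H2-Eb1: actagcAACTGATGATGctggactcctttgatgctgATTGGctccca
H2-DMb1: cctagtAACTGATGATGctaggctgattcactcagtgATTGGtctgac
H2-DMb2: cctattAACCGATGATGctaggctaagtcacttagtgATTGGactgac
H2-Ob: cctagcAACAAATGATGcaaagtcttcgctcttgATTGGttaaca
H2-Aa: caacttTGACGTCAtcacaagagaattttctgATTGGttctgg

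These stretches lie at chr17:34305772-34305818 (H2-Eb1, + strand), chr17:34153093-34153140 (H2-DMb1, +), chr17:34145122-34145169 (H2-DMb2, +), chr17:34238814-34238858 (H2-Ob, +) and chr17:34287861-34287903 (H2-Aa, - strand). Between the first and second capital blocks lie 19, 20, 20, 17 and 18 bases in the same order, and the Y box begins 59, 61, 90, 57 and 48 bases before the start. H2-DMb1 and H2-DMb2, neighbouring copies of the H2-DM beta gene, carry nearly the same element. Of all 32851 promoter windows, 5 (0.0152%) held the X core followed on the gene strand by ATTGG within 40 bases, and 4 of the 5 were those of H2-Eb1, H2-DMb1, H2-DMb2 and H2-Ob. The fifth belonged to 1700048F04Rik, which had no named probe set. Singly and on either strand, the X core occurred in 0.539% of windows, TGACGTCA in 1.55% and ATTGG in 33.8%. On the gene strand, TGACGTCA followed by ATTGG within 40 bases occurred in 0.0974%. In H2-Oa and in 1 of the 2 windows of H2-DMa only ATTGG matched, and in the other H2-DMa window none did, which says only that these letters are not there.

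The cells carried the macrophage markers of their label, and some markers of other cells. All 8 measured macrophage markers were above the dim level, with C1qb at a mean of 12.1 and Csf1r at 12.05. Among markers of other class II expressing cells, 1 of 8 measured B cell genes was above it (Cd22), and of 12 dendritic cell genes 4 were (Itgax, Irf8, Batf3 and Ccr7), while Zbtb46, Flt3, Clec9a and Xcr1 were dim. Of 5 T cell genes only Cd4 was above it. Of 7 measured neutrophil genes 6 were above it, with Ngp at a mean of 10.01 and S100a9 at 7.85. Of 4 measured monocyte genes 3 were, with Ccr2 at 7.89 and Ly6c2 at 7.57. Array medians lay between 5.60 and 5.69. The 3 arrays numbered 1 differed from the rest: limma called 3333 of 10042 genes (33.2%) between them and numbers 2 and 3.

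The chains of the class II molecule itself had their lowest group means with LCN2 from day 0. H2-Aa, the alpha chain of I-A, read 11.03, 10.33 and 10.36 with vehicle on arrays 1, 2 and 3, 10.57, 10.35 and 10.29 with LCN2 from day 7, and 10.34, 9.64 and 9.99 with LCN2 from day 0. Vehicle array 1 was the highest of the 9, and the day 0 array numbered 1 overlapped the lowest vehicle array. H2-Ab1, the beta chain that pairs with it, read 10.96, 10.20 and 10.21 with vehicle, 10.53, 10.32 and 10.12 with LCN2 from day 7, and 10.20, 9.54 and 9.62 with LCN2 from day 0. The day 0 arrays all lay below the vehicle arrays, but by a margin too small to see at this rounding. H2-Eb1, the beta chain of I-E, read 9.52, 8.63 and 8.48 with vehicle, 9.01, 8.69 and 8.61 with LCN2 from day 7, and 8.98, 7.86 and 7.95 with LCN2 from day 0. Its groups overlapped too, with day 0 array 1 above the vehicle arrays numbered 2 and 3. C57BL/6 mice do not make the I-E alpha chain that would pair with H2-Eb1. In every group the array numbered 1 had the highest level of all 3 chains.

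LCN2 from day 0 minus vehicle, the chains differed by -0.59 ± 0.23 (SE, n = 3 per group) for H2-Aa, by -0.67 ± 0.25 for H2-Ab1 and by -0.61 ± 0.34 for H2-Eb1 on the log2 scale. These correspond to levels 1.51-, 1.59- and 1.53-fold lower, and their size rested in part on single arrays. Without vehicle array 1 they were -0.36, -0.42 and -0.29 in the same order, and without day 0 array 1 H2-Eb1 was at -0.97. Within arrays of the same number the H2-Ab1 difference was -0.76, -0.67 and -0.59 for numbers 1, 2 and 3, so that its spread over the pairs was small beside its size. In the same pairs H2-Aa gave -0.70, -0.70 and -0.38, and H2-Eb1 gave -0.54, -0.77 and -0.52. Arrays numbered 2 and 3 were as alike across numbers as within them. Which chain spreads more therefore depends on how these arrays are paired. Blocking on the replicate number gave an SE of 0.125 for H2-Aa, 0.118 for H2-Ab1 and 0.155 for H2-Eb1. LCN2 from day 7 minus vehicle, H2-Ab1 differed by -0.13 ± 0.25, with -0.43, 0.12 and -0.09 within the numbers. The pair numbered 1 lay apart there. Without vehicle array 1 alone the day 7 differences turned to 0.05 for H2-Aa, 0.12 for H2-Ab1 and 0.22 for H2-Eb1, and without all 3 arrays numbered 1 they were -0.03 for H2-Aa, 0.01 for H2-Ab1 and 0.10 for H2-Eb1.

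H2-DM, which edits the peptide cargo, is encoded by H2-DMa for the alpha chain and by H2-DMb1 and H2-DMb2 for the beta chain. H2-DMa read 9.24, 9.14 and 8.84 with vehicle, 8.72, 8.62 and 8.92 with LCN2 from day 7, and 8.67, 8.46 and 8.36 with LCN2 from day 0. H2-DMb1 read 11.01, 10.67 and 10.59 with vehicle, 10.55, 10.58 and 10.75 with LCN2 from day 7, and 10.44, 10.24 and 10.11 with LCN2 from day 0. H2-DMb2 read 8.28, 7.96 and 8.06 with vehicle, 8.10, 8.12 and 8.23 with LCN2 from day 7, and 7.56, 7.82 and 7.78 with LCN2 from day 0. For all 3 genes the day 0 arrays lay entirely below the vehicle arrays, and for H2-DMb1 and H2-DMb2 below the day 7 arrays as well. The 2 beta genes are close copies, and how far their probes bind each other's RNA was not tested.

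LCN2 from day 0 minus vehicle, H2-DMa differed by -0.58 ± 0.15, H2-DMb1 by -0.49 ± 0.14 and H2-DMb2 by -0.38 ± 0.12 (SE, n = 3 per group). The pairs of H2-DMa gave -0.57, -0.67 and -0.48, and those of H2-DMb2 gave -0.72, -0.15 and -0.28, a wider spread, so that H2-DMb2 was at -0.21 without the arrays numbered 1. With LCN2 from day 7 the 3 genes were less alike. H2-DMa differed from vehicle by -0.32 ± 0.15, with -0.52, -0.52 and 0.08 within numbers 1, 2 and 3, and H2-DMb2 by 0.04 ± 0.12. Of the measured members, H2-DMa had the most negative day 7 mean and H2-DMb2 the only one above 0.

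H2-DO, the restraint on H2-DM, is made mainly in B cells, and its genes were dim here. H2-Oa read 5.92, 5.16 and 5.31 with vehicle, 5.20, 5.13 and 5.15 with LCN2 from day 7, and 5.39, 5.07 and 5.26 with LCN2 from day 0. Vehicle array 1 alone stood above the dim level of 5.66, and the same held for H2-Ob, at 5.71 on that array against 5.40 to 5.53 on the other 8. Fitted without the filter on dim genes, the day 0 difference was -0.22 ± 0.19 for H2-Oa and -0.12 ± 0.11 for H2-Ob, while within numbers 2 and 3 it was -0.09 and -0.05 for H2-Oa and -0.02 and -0.07 for H2-Ob. Without vehicle array 1 the difference was 0.01 for H2-Oa and -0.05 for H2-Ob. H2-Eb2, a class II gene outside the members, was dimmer still, with its highest level at 5.10 on day 7 array 2 and all others at or below 4.24.

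Ciita, the coactivator of the family, was above the dim level but near it. It read 6.67, 6.28 and 6.26 with vehicle, 6.07, 6.43 and 6.24 with LCN2 from day 7, and 5.67, 5.96 and 6.29 with LCN2 from day 0. The groups overlapped, because day 0 array 3 stood level with the vehicle arrays numbered 2 and 3. LCN2 from day 0 minus vehicle, Ciita differed by -0.43 ± 0.19 (SE, n = 3 per group), made up of -1.003, -0.31 and 0.03 within numbers 1, 2 and 3. Without day 0 array 1 it was -0.27, and without all arrays numbered 1 -0.14. In the pair numbered 3 Ciita and its target genes were unlike: with Ciita at 0.03, H2-Ab1 differed by -0.59, H2-DMa by -0.48 and H2-DMb1 by -0.48 between the same arrays. The day 0 array numbered 1 had the lowest Ciita of all 9 arrays and also the lowest H2-DMb2 (7.56). Within its own group it had the highest H2-Aa, H2-Ab1 and H2-Eb1, as number 1 did in every group. Against vehicle array 1, however, these 3 chains were lower on it too, with differences of -0.70, -0.76 and -0.54.

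**Figure D1:**
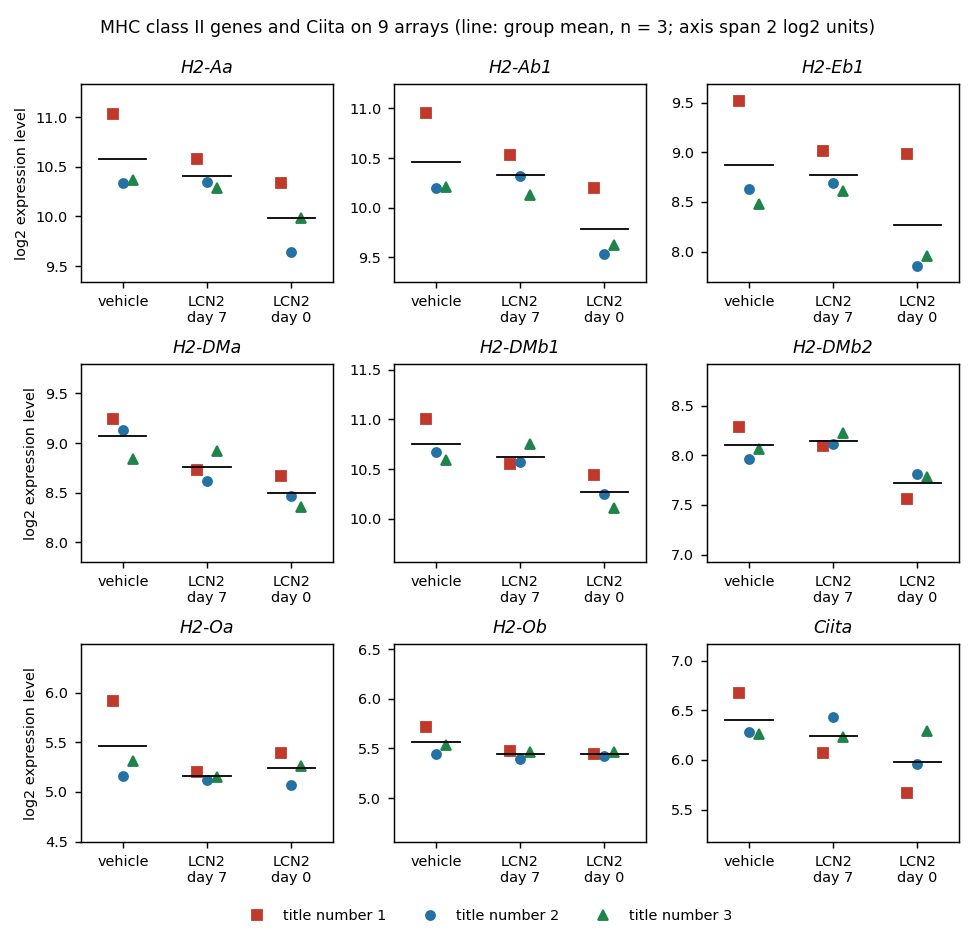
Log2 level of each measured member (y axis, every panel spanning 2 log2 units) by group (x axis), with 1 point per array, marked by title number, and a line at each group mean (n = 3). The red squares of number 1 sit at the top of each group for H2-Aa, H2-Ab1 and H2-Eb1, while for Ciita the square is the highest with vehicle (6.67) and the lowest with LCN2 from day 0 (5.67).

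Ordered by group mean, the 3 chains, H2-DMa, H2-DMb1 and Ciita ran vehicle, day 7, day 0 from high to low. So did the dim H2-Ob, though with both LCN2 means at 5.44. H2-Ab1 for example had means of 10.46 ± 0.43 (SD, n = 3), 10.33 ± 0.20 and 9.78 ± 0.36. For H2-DMb2 the day 7 mean (8.15 ± 0.07) was slightly above vehicle (8.10 ± 0.16), and day 0 was at 7.72 ± 0.14. For H2-Oa the day 7 mean was the lowest. The vehicle and day 7 means lay no further apart than the larger of their SDs in 8 of the 9, the exception being H2-DMa (9.07 ± 0.21 and 8.75 ± 0.16). The day 7 and day 0 means lay further apart than that for H2-Aa, H2-Ab1 and the 3 H2-DM genes, and not for H2-Eb1, Ciita, H2-Oa and H2-Ob. The share of all genes with such an order or such gaps was not worked out. The members were also picked with earlier results known, so nothing is read from these orders and gaps.

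**Figure D2:**
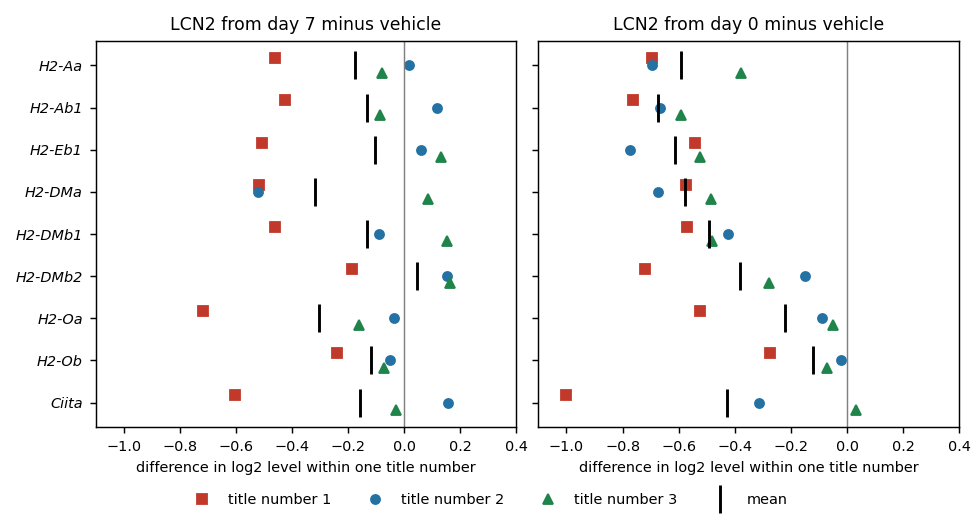
Difference in log2 level between an LCN2 array and the vehicle array of the same title number (x axis) for each measured member (y axis), for LCN2 from day 7 (left) and from day 0 (right); the bar is the mean of the 3. On the left number 1 lies apart, with H2-Ab1 at -0.43 against 0.12 and -0.09, and on the right H2-Ab1 lies at -0.76, -0.67 and -0.59.

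Against vehicle, 6 of the 7 tested members were lower with LCN2 from day 0 in all 3 same-number pairs, the exception being Ciita; among all 10042 genes, 15.4% were. The day 0 and vehicle arrays did not overlap, with day 0 lower, for 4 of 7 (H2-Ab1, H2-DMa, H2-DMb1 and H2-DMb2), against 3.44% of all genes. Without the arrays numbered 1, a count chosen after seeing the data, 6 of 7 did not overlap, against 21.2% of all genes, the exception again being Ciita. All 7 were below 0 in the mean, as were 54.8% of all genes. No single gene passed the test across all genes: limma called 0 of 10042 (0%), the 7 members had an adjusted p of 0.999 each, while 142 genes (1.41%) lay under 0.05 before adjustment, 6 of the 7 members among them (all but H2-Eb1). The fit that blocks on the replicate number also called 0, with 497 genes (4.95%) under 0.05 before adjustment, all 7 members among them, and the lowest adjusted p of a member was 0.628, that of H2-Ab1. The members were picked with such results in view, so nothing is read from these counts. The median over the 7 was -0.58, beside -0.015 over all genes tested. In such bulk samples fewer class II positive cells and less class II RNA per cell cannot be told apart.

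For LCN2 from day 7 minus vehicle, 6 of 7 tested members were below 0, against 49.1% of all genes, and none was lower in all 3 pairs, where 10.3% of genes were. No member's arrays lay wholly below vehicle (1.67% of genes), nor did any without the arrays numbered 1 (11.8%). The median over the 7 was -0.13, and it was -0.46, 0.06 and 0.08 within numbers 1, 2 and 3. Limma made 0 calls (0%), 70 genes (0.697%) but 0 of 7 members lying under 0.05 before adjustment, and the replicate block gave 0 calls and 259 such genes (2.58%), with 1 of 7 members, H2-DMa. The day 7 and day 0 groups share the vehicle arrays, so a high vehicle array 1 enters both differences. Between the LCN2 groups, which leaves vehicle out, all 7 tested members were lower with LCN2 from day 0 (55.5% of all genes were), 6 of 7 in all 3 pairs (12.9% of genes). For 2 members, H2-DMb1 and H2-DMb2, the LCN2 groups did not overlap, against 2.93% of genes; without the arrays numbered 1 the count was 6 of 7, against 20.2%. H2-DMb2 differed by -0.43 ± 0.12 and H2-Ab1 by -0.54 ± 0.25 (SE, n = 3 per group), and limma made 0 calls (0%). Before adjustment 177 genes (1.76%) lay under 0.05, with 2 of 7 members (H2-DMb1 and H2-DMb2), and 539 (5.37%) in the blocked fit, with 5 of 7; that fit also made 0 calls.

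Markers of other cells differed in the same comparison, none past the threshold. Against vehicle, all 6 tested neutrophil markers were above 0 with LCN2 from day 0, with a median of 0.48. With LCN2 from day 7 all 6 were above 0 too, at a median of 0.45. Among all genes tested, 54.8% were below 0 with LCN2 from day 0 and 49.1% with LCN2 from day 7. The mean level of the 7 measured neutrophil markers was 5.88, 7.52 and 7.46 on the vehicle arrays, 6.71, 7.53 and 7.73 with LCN2 from day 7 and 6.35, 7.93 and 7.92 with LCN2 from day 0. The 4 measured monocyte markers averaged 5.51, 6.93 and 6.83 with vehicle, 6.12, 7.203 and 7.14 with LCN2 from day 7 and 5.75, 7.13 and 6.99 with LCN2 from day 0. Dendritic cell markers averaged 5.43 to 5.56 with vehicle, 5.38 to 5.45 with LCN2 from day 7 and 5.34 to 5.48 with LCN2 from day 0. B cell markers averaged 4.52 to 4.75 with vehicle, 4.59 to 4.87 with LCN2 from day 7 and 4.53 to 4.98 with LCN2 from day 0. Macrophage markers averaged 10.7 to 10.8 with vehicle, 10.6 to 10.7 with LCN2 from day 7 and 10.5 to 10.7 with LCN2 from day 0. The part of these markers in the class II result was not tested.

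The title number gave the calls among the members. Number 1 stands apart over all genes in these same arrays, so the calls of this split are a description. Their p-values cover the scatter of arrays, not that between title numbers. On the arrays numbered 1, compared with numbers 2 and 3 and with group as a term, H2-Eb1 was higher by 0.80 ± 0.13 (SE; limma adjusted p = 0.00312), H2-Ab1 by 0.56 ± 0.10 (adjusted p = 0.00454) and H2-Aa by 0.49 ± 0.11 (adjusted p = 0.0102). The members past the threshold were thus these 3 of 7, all higher, against 11.0% of all genes called higher and 22.1% called lower, and 2 of 7 were below 0, as were 59.1% of all genes. Only for H2-Eb1 did every array numbered 1 lie above all the others, which held for 11.8% of genes. H2-DMa was at 0.15 (95% interval -0.11 to 0.42), H2-DMb1 at 0.17 (-0.08 to 0.43), H2-DMb2 at -0.02 (-0.25 to 0.22) and Ciita at -0.11 (-0.48 to 0.26), none past the threshold. The interval of H2-Eb1, from 0.50 to 1.11, lay above the whole intervals of all 4, while those of H2-Aa (0.24 to 0.74) and H2-Ab1 (0.33 to 0.79) overlapped some of them; the differences between members were not tested. Leaving out vehicle array 1 took H2-Aa to 0.39 (adjusted p = 0.079), and leaving out day 0 array 1 took it to 0.47 (adjusted p = 0.0578), while H2-Ab1 and H2-Eb1 stayed past the threshold in all 16 alternatives. Between numbers 2 and 3 limma made 0 calls (0%; 310 genes, or 3.09%, under 0.05 before adjustment, with 0 of 7 members), and the tested members differed by -0.10 to 0.05, with 3 of 7 below 0 (55.7% of genes). Neutrophil and monocyte markers were far lower on the arrays numbered 1, with medians of -1.50 and -1.49 and all 9 tested genes past the threshold. Most genes of the B cell and dendritic cell lists were dim, among them Ms4a1, Cd79a, Cd79b, Pax5, Zbtb46 and Flt3. Those above the dim level were higher on the same arrays. Cd22 was higher by 1.13, Itgax by 0.70 and Ccr7 by 0.33, all past the threshold. Irf8 and Batf3 were above 0 without passing it. The 8 tested macrophage markers went both ways, 4 above 0 and 4 below, from -0.98 to 0.77. Of these 1 was called higher and 1 lower. The part of any of these markers in the class II levels was not tested.

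**Figure D3:**
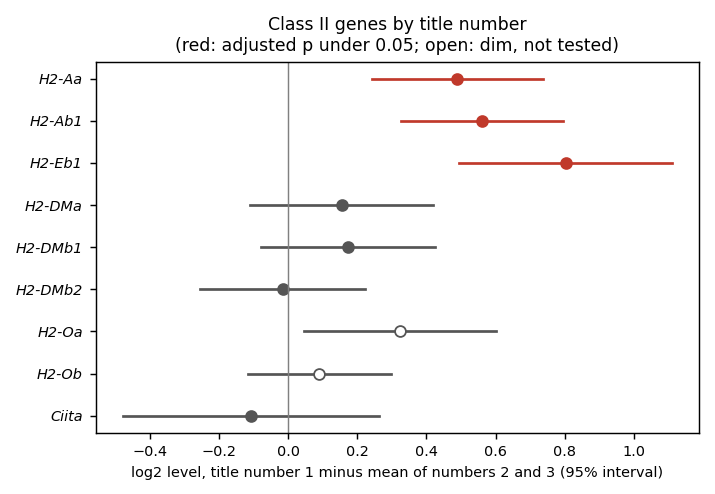
Log2 level on the arrays numbered 1 minus the mean of numbers 2 and 3 (x axis, point and 95% interval from limma with group as a term) for each measured member (y axis). H2-Aa, H2-Ab1 and H2-Eb1, in red, are past the threshold at 0.49, 0.56 and 0.80, and the H2-DM genes and Ciita lie between -0.11 and 0.17.

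The fixed lists were read by title number too, where 33.2% of all genes were called, 11.0% higher and 22.1% lower on the arrays numbered 1. No list was tested against that share. Of 8 tested genes for peptide generation and invariant chain cleavage, 6 were higher and 0 lower: Ctss, the protease that finishes invariant chain cleavage (0.30), Ctsl (0.67), Ctsf (0.63), Lgmn (0.31), Ifi30, which reduces disulfide bonds of antigens (0.32), and Cst3, an inhibitor of cathepsins (0.39). Of 3 turnover genes 2 were higher: Marchf1, the ubiquitin ligase that removes class II from the surface, by 0.37 (adjusted p = 0.0307), and Cd83, which opposes it, by 0.96 (adjusted p = 0.00174). Among 12 tested activators of Ciita, 4 were called, a share close to that of all genes: Il4ra, the IL-4 receptor chain, was higher by 1.21 (adjusted p = 6.02e-05), Jak2 by 0.74 and Irf2 by 0.27, while Irf1, which switches on Ciita after interferon gamma, was at -0.89 (adjusted p = 0.000609). Of 12 tested genes of the promoter complex and its coactivators 2 were called, both lower, the methyltransferase gene Carm1 (-0.29) and the remodeller gene Smarca4 (-0.32).

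Of 10 tested repressors 5 were higher, Prdm1, which silences Ciita in plasma cells (1.25), Socs1, a brake on cytokine signalling (0.53), Il10ra (0.67), Tgfb1 (0.45) and Tgfbr2 (0.39), and 3 were lower, the histone-modifying enzyme genes Hdac1 (-0.54), Hdac2 (-0.47) and Ezh2 (-0.51). Of 12 IL-4 response genes 5 were higher, Ccl24 (2.44), Chil3 (1.51), Egr2 (0.85), Retnla (0.70) and Cish (0.61), and 2 were lower, Arg1 (-0.64) and the chemokine gene Ccl22 (-0.60). Class I presentation had 3 of 12 higher, H2-D1 (0.32), Tapbp (0.58) and Psmb10 (0.37). Among 5 costimulators Cd274 was higher (0.73), and Cd40 (-0.46) and Icosl (-0.76) were lower. Among 5 interferon gamma inducible GTPases Gbp2 was higher (1.85) and Irgm2 lower (-0.32), and among 13 neighbours of the class II genes Brd2 was higher (0.29) and Ring1 lower (-0.28). All calls are limma's, adjusted over all genes.

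For LCN2 from day 0 the rest of the pathway is given by values, since no gene of the lists below passed the test against vehicle. Among all genes tested, 54.8% were below 0 in that comparison. Among factors that build the complex on class II promoters and its coactivators, 9 of 12 tested genes were below 0 with a median of -0.07; Nfyb, a subunit of the Y box factor, was at -0.31 ± 0.16 (SE, n = 3 per group), Rfx5, the DNA-binding subunit of the X box complex, at -0.23 ± 0.16, and the acetyltransferase gene Ep300 at 0.23 ± 0.14. Rfx5 was uneven over the numbers, at -0.16, 0.07 and -0.61. Activators of Ciita had a median of -0.02 with 8 of 12 below 0, led by Irf4, a factor of IL-4 activated macrophages, at -0.48 ± 0.32 and by Ifngr2 at -0.16 ± 0.14 and Stat6 at -0.12 ± 0.11. Repressors had a median of 0.01 with 5 of 10 below 0, and Socs1 was at -0.20, Hdac2 at -0.14 and Sin3a at 0.15.

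The processing genes centred on 0, with a median of -0.01 and 4 of 8 below it, although Ctss (-0.17), Lgmn (-0.16) and Ifi30 (-0.13) were each below 0 in all 3 pairs. Marchf1 read 9.59, 9.40 and 9.36 with vehicle, 9.54, 9.41 and 9.26 with LCN2 from day 7, and 9.64, 8.96 and 8.94 with LCN2 from day 0. Its day 0 arrays numbered 2 and 3 were the lowest of the 9 and number 1 the highest. With Marchf1, 2 of 3 tested genes of class II turnover were below 0, at a median of -0.16. Costimulators had a median of 0.04 with 2 of 5 tested genes below 0, with Cd80 at 0.22, Cd40 at -0.08 and Icosl at 0.32. Among interferon gamma inducible GTPases, 5 of 5 tested genes (of 10 listed) were below 0 with a median of -0.25, and Igtp was at -0.43, Gbp7 at -0.34 and Irgm1 at -0.25. Igtp split over the numbers, at 0.10, -0.72 and -0.67. Class I presentation genes had a median of -0.08 with 10 of 12 below 0, with Psmb9 at -0.30, H2-K1 at -0.17 and Tap1 at -0.17. IL-4 response genes had a median of -0.13 with 8 of 12 below 0, with Irf4 again at -0.48, Ccl17 at -0.39 and Mrc1 at 0.15. With LCN2 from day 7, 11 of 12 IL-4 response genes were below 0 at a median of -0.06. The GTPases then had 4 of 5 below 0 at a median of -0.19, and class I presentation 8 of 12 at -0.03. Medians below 0 in these lists were thus not particular to LCN2 from day 0.

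**Figure D4:**
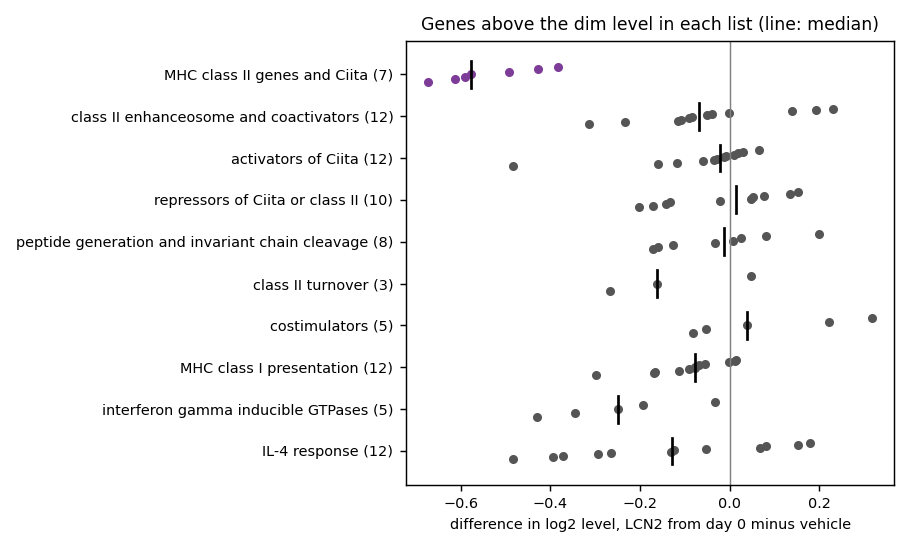
Difference in log2 level, LCN2 from day 0 minus vehicle (x axis), of every gene above the dim level in each list (y axis, number of genes in brackets), with a line at the list median. The 7 tested members, Ciita among them, lie between -0.67 and -0.38 with a median of -0.58, and the medians of the other lists lie between -0.25 and 0.04.

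The class II genes share their stretch of chromosome 17 with genes of class I presentation, where the order of genes can be set beside their differences. In the RefSeq order of GRCm38.p6, 13 measured genes run from H2-Oa to H2-Eb1, 5 of them not class II genes. LCN2 from day 0 minus vehicle, those 5 differed by -0.11 (Brd2, a chromatin reader), -0.30 (Psmb9, an immunoproteasome subunit), -0.17 (Tap1), -0.08 (Psmb8) and -0.07 (Tap2), where Tap1 and Tap2 form the peptide transporter of class I. Their median was -0.11, and that of the 6 tested class II genes of the stretch was -0.58, from -0.67 to -0.38. Only Psmb9, between H2-DMb1 and Tap1, came close to the class II values, with levels of 8.46, 8.33 and 8.47 with vehicle, 8.23, 8.42 and 8.46 with LCN2 from day 7, and 8.23, 8.16 and 7.98 with LCN2 from day 0. Over the wider list of 13 tested neighbours the median was -0.08 with 10 below 0; beside Psmb9, Pbx2 was at -0.31 ± 0.12 and Slc39a7 at -0.19 ± 0.12.

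**Figure D5:**
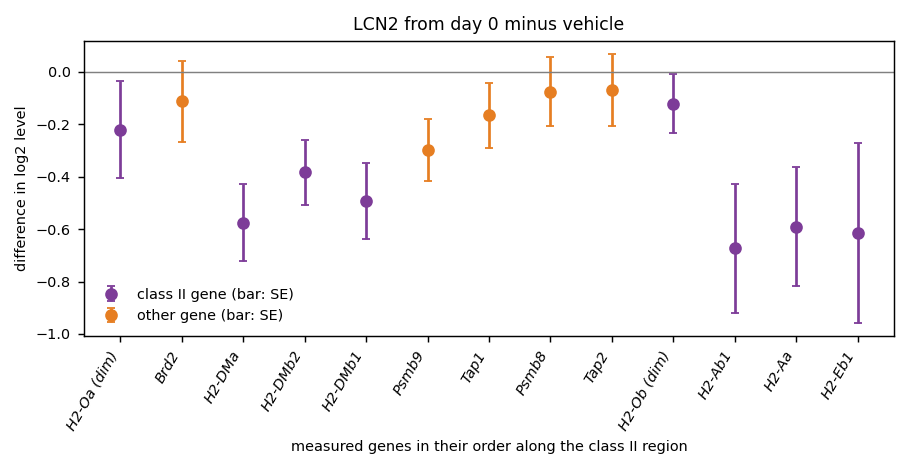
Difference in log2 level, LCN2 from day 0 minus vehicle (y axis, bars are the SE of the limma fit, n = 3 per group), for the 13 measured genes from H2-Oa to H2-Eb1 in chromosomal order (x axis, order only). The 6 tested class II genes lie between -0.67 and -0.38 and the 5 other genes between -0.30 and -0.07, with the dim H2-Oa and H2-Ob at -0.22 and -0.12.

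The pattern of H2-Ab1 over the 9 arrays, after the mean of each title number was subtracted, was most like that of H2-Aa (Pearson r = 0.98), the first of 10041 other genes. H2-Eb1 came 13th (r = 0.95), H2-DMb1 59th (0.91), H2-DMb2 166th (0.85), H2-DMa 311th (0.79) and Ciita 365th (0.78). The most alike genes outside the family were Nudt9, an ADP-ribose hydrolase (0.98), Dcstamp, needed for the fusion of macrophages (0.98), Nes, the intermediate filament nestin (0.98), the heparan sulfate proteoglycan gene Sdc3 (0.97) and the phosphatase gene Ubash3b (0.97). Ciita was matched best by Disc1 (0.98), Nubpl (0.96), Sdhaf1 (0.96), Ifrd2 (0.96) and Tmem176a (0.95), all outside the family, and its nearest target was H2-Aa, 122nd of 10041 (0.83). These r values are descriptions over the same 9 arrays and carry no p; with so few arrays, many genes reach high values.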

How the data were processed

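The deposited table holds log2 values for 22203 probe sets on 9 arrays. Per the labels' processing notes, the authors processed the arrays by RMA in the oligo package (versions not given in the sources used here); RMA corrects background, makes arrays alike in distribution and summarises probes on the log2 scale. Equal distributions mean that only differences relative to the other probes are seen. Gene names came from the platform annotation, matched by Entrez identifier to RefSeq of GRCm38.p6 (19572 probe sets with 1 symbol, 0 with several, 2631 with none). The brightest probe set stood for each of 55 genes with more than 1.

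Genes with a mean under 5.66 were left out as dim. The main model gave each group a mean over all 9 arrays (limma 3.58.1, R 4.3.3), with Benjamini-Hochberg adjustment over 10042 genes and a threshold of 0.05; the title number was compared with group as a term. The fit was run on simulated data that held no title number effect. That run cannot show how the main model does on these arrays, where number 1 stands apart. Members and lists were chosen with earlier results of these data known. Named genes are the members, the 3 genes of each list with the smallest p for LCN2 from day 0 against vehicle, any list gene past the threshold (all of them by title number), and the 5 nearest to H2-Ab1 and to Ciita. Arrays of equal number deviated together (all 9 correlations over 0.1, from 0.16 to 0.82), which met the criterion for taking the number as a pairing. The block was nevertheless kept as an alternative. The main model has no term for the number, so its SE holds the spread between numbers. For H2-Eb1, LCN2 from day 0 minus vehicle, the SE was 0.34 in the main model and 0.155 with the block. Arrays numbered 2 and 3 were as alike across numbers (0.20 to 0.69) as within them (0.16 to 0.65), so the check sets number 1 apart and does not tell 2 from 3. Alternatives were the filter, block, scaling, variance model, array weights, samples in the fit, probe set and leaving out arrays. The number of arrays limits the precision.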

Additional observations from a re-analysis of the deposited data

How the results depend on the processing

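Under all 19 alternatives limma called 0 genes in each comparison of groups, with the lowest adjusted p of any gene at 0.0893 for LCN2 from day 0 against vehicle, and under all 16 between numbers 2 and 3. With 1 array per group and number, the replicate block cannot move a difference, only its SE, so the median of the 9 measured members for LCN2 from day 0 minus vehicle is -0.49 with it by construction; 0 genes were called with it. Leaving out 1 array at a time, that median ran from -0.58 to -0.29. The value nearest 0 came without vehicle array 1, and the other alternatives over the 9 members gave -0.50 to -0.45. The filter at a mean of at least 7 keeps only 6 members, whose median was -0.58. For LCN2 from day 7 it ran from -0.26 to -0.01 with 1 array left out and from -0.13 to 0.01 otherwise. The count of genes called between number 1 and numbers 2 and 3 was 1777 to 3612 with 1 array left out, lowest without vehicle array 1 and then without the day 0 array 1 (1923), and 2708 to 4427 under the other 7 alternatives; fewer arrays numbered 1 remain in those fits. Probes near the dim level, those of Ciita, H2-Oa and H2-Ob, lie closest to background, which limits how well their differences are measured.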
